A study of Homo sapiens with 6 samples.

Results

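Tolloid proteases, ID proteins and the BMP pathway that connects them were followed in prostate cancer cells depleted of METTL1. The 10 genes were TLL1 and BMP1 (tolloid proteases), ID1, ID2, ID3 and ID4, the inhibitory SMADs SMAD6 and SMAD7, and the receptors BMPR1A and BMPR2. They were found by matching the Ensembl identifiers of the deposited tables to these symbols, which gave 10 of 20308 genes. TLL1 and ID1 were selected on their FPKM differences in this same contrast, having passed its test in earlier results, and the other 8 were chosen as their relatives with those results known, so their differences between the groups are given below as a description, without p-values. TLL1 was lower in all 3 METTL1-depleted libraries, at 35.3% of its control mean, while ID1 and ID2 were higher in all 3, at 245% and 191%.

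The cells were LNCaP-AI, a line that serves as a model of castration-resistant prostate cancer, and all libraries carried the same label of androgen deprivation therapy. METTL1 encodes the catalytic subunit of the enzyme complex that places N7-methylguanosine on RNA. A lentiviral short hairpin against METTL1 (shMETTL1, 3 libraries) was compared with a scrambled hairpin (shscramble, 3 libraries). Both groups were thus infected cells of a single established line. The paper that reported these data states 3 biological replicates for its data in general. Because the labels do not say whether these libraries came from separate cultures, the spread between them may be technical.

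Tolloid proteases are secreted metalloproteases. They cut the C-terminal propeptides from fibrillar procollagens, which lets collagen assemble, and they cut chordin, an antagonist that holds BMP ligands away from their receptors. BMP ligands bring type I and type II receptors together, the type I receptor phosphorylates SMAD1, SMAD5 and SMAD9, and these enter the nucleus with SMAD4. The ID genes are among the best known direct targets of this pathway. Their products have a helix-loop-helix domain but no basic region, so they pair with E proteins and keep them off DNA. SMAD6 and SMAD7 are induced by the pathway and inhibit it.

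Measurements were FPKM, fragments scaled for transcript length and library depth, with 1 estimated count per gene beside it. The counts were fractional but stepped in whole multiples of a constant in each library, 0.868 to 1.36, for 89.7% to 91% of the values above 0 (within 0.02). Divided by it, the totals were 3627498 to 4085347 fragments in shscramble and 2650770 to 3595539 in shMETTL1. METTL1 itself was at 13.9, 18.5 and 21.0 FPKM in shscramble and 8.35, 10.5 and 8.18 in shMETTL1, 50.7% of the control mean, and its counts were 36.4, 48.6 and 65.1 against 9.52, 28.5 and 20.5. It missed the threshold by limma (adjusted p = 0.127) and passed it by edgeR on the counts (adjusted p = 0.028, with a range of 0.0104 to 0.364 over all fits). Shscramble replicate 2 lay nearer to the shMETTL1 libraries than the other controls did. Its log2 FPKM correlated across genes with them at 0.9801 to 0.9828, against 0.9728 to 0.9778 for shscramble replicates 1 and 3. Within shscramble the correlations were 0.9766, 0.9800 and 0.9802, the lowest between replicates 1 and 2. Values without it are therefore given beside the results. Leaving out the control nearest to shMETTL1 tends to widen differences, so these values are a description and no separate support.

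All 8 markers of luminal prostate cells that were examined were present, among them KLK3 at 743 to 1224 FPKM and KRT8 at 130 to 162 FPKM. Their summed FPKM was 2322 to 2360 in shscramble and 1778 to 2042 in shMETTL1. KLK2, an androgen-regulated kallikrein among them, was at 196, 206 and 200 FPKM in shscramble and 88.7, 108 and 88.5 FPKM in shMETTL1. Its limma adjusted p was 0.0356, with a range of 2.52e-19 to 0.214 over all fits. EdgeR called KLK2 lower too, and also KLK3 (adjusted p = 0.00133) and TMPRSS2 (adjusted p = 0.0245), which limma did not call. None of the other luminal markers was called by edgeR with all libraries. Neuroendocrine, fibroblast and endothelial markers summed to 1.1 FPKM or less in every library, and CHGA, LUM, CDH5 and the leukocyte gene PTPRC were at 0 throughout. Basal markers summed to 1.29 to 6.5 FPKM in shscramble and 0.431 to 1.6 in shMETTL1, with KRT5 at 0. The immune list summed to 11.8 to 16.8 FPKM in shscramble and 6.43 to 8.11 in shMETTL1, nearly all of it from the lysosomal gene CD68. The part of these shifts in the results below was not tested.

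The 250 bases before the RefSeq start sites of TLL1 and the 4 ID genes are shown because the results turn on these genes. All windows are from GRCh38.p14 and read in the direction of the gene. The TLL1 window lay at chr4:165872987-165873236 (plus strand), ID1 at chr20:31605039-31605288 (plus strand), ID2 at chr2:8681806-8682055 (plus strand), ID3 at chr1:23559502-23559751 (minus strand) and ID4 at chr6:19837120-19837369 (plus strand). Capitals mark matches on either strand to TATAA (the TATA box), CCAAT (the CCAAT box) and CAGAC (a short SMAD binding element).
TLL1: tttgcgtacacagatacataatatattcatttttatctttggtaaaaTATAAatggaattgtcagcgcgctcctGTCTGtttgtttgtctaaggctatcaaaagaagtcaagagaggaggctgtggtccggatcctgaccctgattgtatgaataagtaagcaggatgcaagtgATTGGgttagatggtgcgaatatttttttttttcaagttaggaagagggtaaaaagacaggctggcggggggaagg
ID1: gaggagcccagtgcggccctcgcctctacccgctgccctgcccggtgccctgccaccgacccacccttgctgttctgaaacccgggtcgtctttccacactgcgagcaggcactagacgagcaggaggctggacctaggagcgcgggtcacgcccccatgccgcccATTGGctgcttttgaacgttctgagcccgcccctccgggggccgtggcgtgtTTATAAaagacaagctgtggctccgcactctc
ID2: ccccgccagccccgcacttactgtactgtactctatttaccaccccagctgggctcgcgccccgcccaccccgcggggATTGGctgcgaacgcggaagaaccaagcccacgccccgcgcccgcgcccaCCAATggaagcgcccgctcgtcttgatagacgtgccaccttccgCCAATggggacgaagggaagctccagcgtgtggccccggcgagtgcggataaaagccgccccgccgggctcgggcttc
ID3: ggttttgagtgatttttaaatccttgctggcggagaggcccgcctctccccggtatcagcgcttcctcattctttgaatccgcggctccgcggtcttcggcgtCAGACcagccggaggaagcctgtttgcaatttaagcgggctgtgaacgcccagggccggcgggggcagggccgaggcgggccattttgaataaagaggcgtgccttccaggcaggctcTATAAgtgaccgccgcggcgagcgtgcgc
ID4: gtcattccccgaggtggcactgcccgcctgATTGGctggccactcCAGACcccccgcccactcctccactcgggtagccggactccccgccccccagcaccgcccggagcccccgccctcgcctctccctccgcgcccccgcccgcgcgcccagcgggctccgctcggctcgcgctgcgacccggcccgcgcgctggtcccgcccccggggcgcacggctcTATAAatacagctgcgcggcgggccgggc

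The ID windows were rich in G and C, at 66% in ID1, 69.2% in ID2, 62% in ID3 and 78.8% in ID4, against 40.4% in TLL1 and a median of 58% over all 35116 windows. A TATAA on the gene's strand with its first base 25 to 35 bases before the start was present in ID1, ID3, ID4 and 1 of the 3 windows of SMAD7, and in 3.57% of all windows. ID2 lacked TATAA in its window and had 3 CCAAT boxes. ID1, ID4 and TLL1 each had 1 CCAAT box, a motif found in 32% of windows. CAGAC was in the windows of ID3, ID4 and TLL1 and in 38% of all windows. The GC-rich element GGCGCC, found in 16.4% of windows, was in none of the 5. The palindromic SMAD element GTCTAGAC was in 0.182% of windows and, among the 9 genes searched, in that of SMAD6, where it ended 5 bases before the start. ID4, whose window held a TATA box like those of ID1 and ID3, was the ID gene with almost no RNA in these cells.

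TLL1 was an abundant transcript, at percentile 96.3 of mean FPKM among the 12156 genes tested, those with a mean of at least 0.5 FPKM. It stood at 225, 155 and 241 FPKM in shscramble replicates 1 to 3 and at 78.6, 77.0 and 64.0 FPKM in shMETTL1. The groups did not overlap, the lowest control being shscramble replicate 2. The means were 207 ± 45.9 and 73.2 ± 8.01 FPKM (SD, n = 3). On the log2(FPKM + 0.5) scale the difference was -1.47 ± 0.19 (SE), which is 2.78-fold lower in shMETTL1. In bulk RNA, fewer cells with a transcript and less of it in each cell cannot be told apart. In estimated counts TLL1 was at 1446, 1370 and 1641 in shscramble and 665, 627 and 588 in shMETTL1. The log2 difference in counts by edgeR was -1.30, somewhat smaller than in FPKM. The counts per FPKM, which follow the transcript length the authors' software assigned, were 6.42, 8.83 and 6.80 in shscramble and 8.46, 8.14 and 9.18 in shMETTL1. The ratio of the highest to the lowest, 1.43, was close to the median of 1.35 over 11186 genes. Without shscramble replicate 2, the lowest control, the difference in TLL1 had to widen, and was -1.67 by limma and -1.40 by edgeR.

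BMP1, the founding tolloid protease, was at 5.57, 4.37 and 3.98 FPKM in shscramble and 4.64, 3.97 and 4.54 FPKM in shMETTL1. Its groups overlapped fully, with a log2 difference of -0.06 ± 0.25 (SE). TLL2, the other tolloid-like protease, was at 2.13 ± 0.362 FPKM in shscramble and 1.91 ± 0.338 FPKM in shMETTL1 (SD, n = 3), and did not pass the test. TLL1 thus made up 96.8% of the summed FPKM of the 3 tolloid genes in shscramble and 92.1% in shMETTL1. The sum itself was 233, 161 and 248 FPKM in shscramble and 84.7, 83.2 and 70.5 FPKM in shMETTL1.

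**Figure D1:**
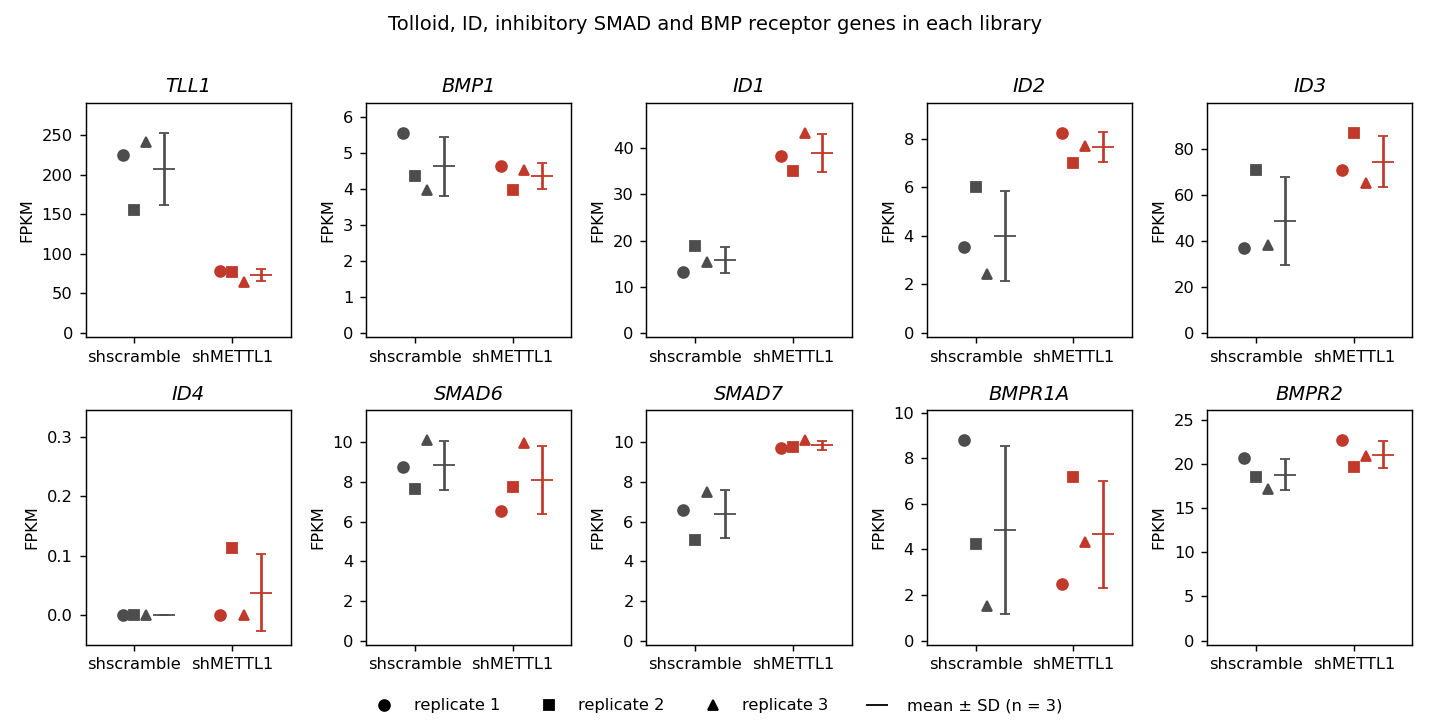
FPKM of each gene (y axis, linear, scaled for each panel) in the 3 shscramble and 3 shMETTL1 libraries, with marker shapes for the replicate number and a bar for the mean ± SD. TLL1 is lower and ID1, ID2 and SMAD7 are higher in every shMETTL1 library, and ID3 is at 70.8 FPKM both in shscramble replicate 2 and in shMETTL1 replicate 1.

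ID1 was at 13.2, 18.9 and 15.3 FPKM in shscramble and 38.2, 35.1 and 43.3 FPKM in shMETTL1. The lowest shMETTL1 library was well above the highest control. The means were 15.8 ± 2.89 and 38.9 ± 4.17 FPKM (SD, n = 3), a log2 difference of 1.28 ± 0.18 (SE), or 2.43-fold. Estimated counts gave nearly the same picture, 47.7, 65.1 and 53.1 in shscramble and 126, 121 and 152 in shMETTL1, with a log2 difference of 1.22 by edgeR. The counts per FPKM of ID1 moved by 1.09 times among libraries. That ratio was at percentile 16.4 of 11186 genes, so FPKM and counts measured much the same for ID1.

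ID2 was less abundant, at 3.56, 6.02 and 2.43 FPKM in shscramble and 8.25, 7.01 and 7.71 FPKM in shMETTL1. Its groups did not overlap, and its log2 difference was 0.93 ± 0.32 (SE). The counts behind it were low, 12.1 to 26.9 in shscramble and 34.9 to 40.8 in shMETTL1. An antisense gene, ID2-AS1, overlaps ID2, and the strand setting of the counting is not given in the sources used here, so reads of the pair may not have been told apart.

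ID3 was the most abundant ID gene, at 36.9, 70.8 and 38.4 FPKM in shscramble and 70.8, 86.9 and 65.3 FPKM in shMETTL1. Shscramble replicate 2 lay among the shMETTL1 libraries, so the groups overlapped. The log2 difference was 0.66 ± 0.25 (SE). In counts, shscramble replicate 2 was at 311, against 163 and 164 in the other shscramble libraries and 294 to 385 in shMETTL1.

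ID4 was at 0 in 5 libraries. In shMETTL1 replicate 2 it was at 0.113 FPKM, which is 1 fragment. A count of 0 allows up to 3 fragments in each library, counting error only. No difference was detectable at this depth.

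Within the control group ID1, ID2 and ID3 were highest in shscramble replicate 2, the library in which TLL1 was lowest. That library lay nearer to shMETTL1 across genes, and how many genes share this pattern was not counted. In counts TLL1 was at 1370 there, not far below the 1446 of shscramble replicate 1. SMAD7 was lowest there in FPKM, at 5.07, and highest among the controls in counts, at 57.3. Without shscramble replicate 2 the log2 difference was 1.41 for ID1, 1.24 for ID2 and 0.96 for ID3 by limma. By edgeR these differences were 1.30, 1.17 and 0.91. Since these genes were highest among the controls in that library, leaving it out had to widen the differences. The summed FPKM of the 4 ID genes was 53.7, 95.8 and 56.1 in shscramble and 117, 129 and 116 in shMETTL1, a ratio of means of 1.76. ID3 remained the largest part of this sum, while the share of ID1 was 23.1% in shscramble and 32.1% in shMETTL1.

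The inhibitory SMADs differed from each other. SMAD7, which blocks signalling by both the BMP and TGF-beta branches, was at 6.57, 5.07 and 7.49 FPKM in shscramble and 9.71, 9.76 and 10.1 FPKM in shMETTL1. Its FPKM groups did not overlap, with a log2 difference of 0.61 ± 0.22 (SE). Its counts did overlap, at 42.1, 57.3 and 53.1 in shscramble and 54.4, 78.2 and 68.4 in shMETTL1, and the log2 difference in counts was 0.35. SMAD6, which acts mainly on the BMP branch, was at 8.76, 7.64 and 10.1 FPKM in shscramble and 6.56, 7.76 and 9.95 FPKM in shMETTL1. Its groups overlapped, with a log2 difference of -0.13 ± 0.24 (SE) in FPKM and -0.01 in counts.

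The receptor genes gave no separation of the groups. BMPR2, the type II receptor, was at 20.7, 18.6 and 17.2 FPKM in shscramble and 22.7, 19.7 and 20.9 FPKM in shMETTL1, a log2 difference of 0.17 ± 0.17 (SE). BMPR1A, a type I receptor, was at 8.78, 4.25 and 1.52 FPKM in shscramble and 2.48, 7.17 and 4.33 FPKM in shMETTL1. Its FPKM varied 5.77 times within shscramble alone. Its counts were far steadier, at 89.7, 110 and 74.5 in shscramble and 121, 128 and 108 in shMETTL1. The counts per FPKM of BMPR1A ran from 10.2 to 48.9 among libraries, a ratio of 4.79 that was at percentile 99.3 of 11186 genes. FPKM and counts of BMPR1A thus gave different orders of the libraries. The annotation also holds pseudogenes of it, BMPR1AP1 and BMPR1AP2, which were not analysed here and could share its reads.

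**Figure D2:**
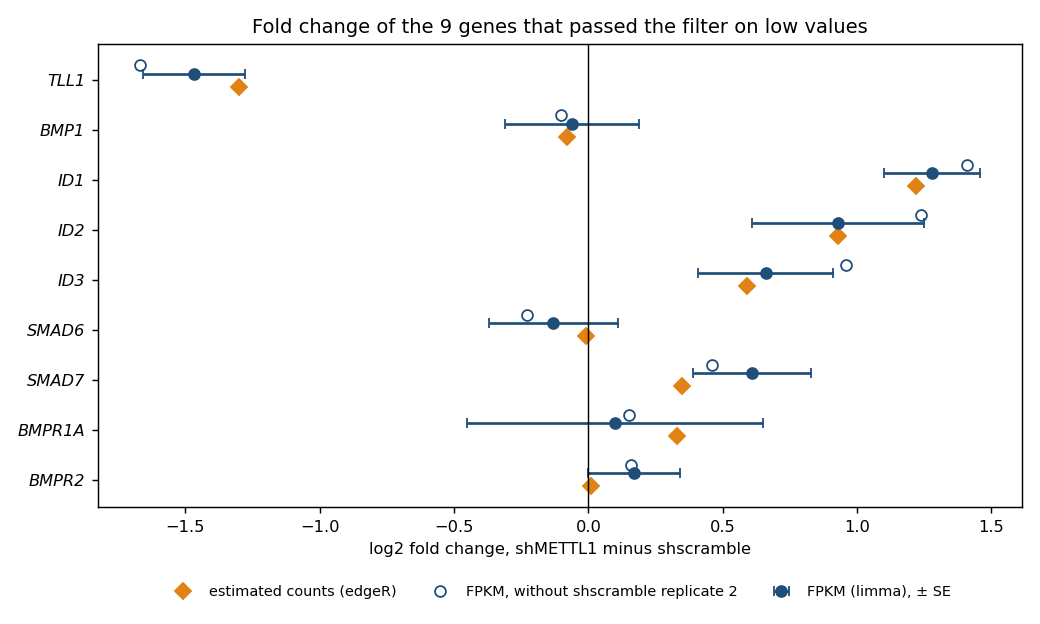
Log2 fold change (x axis, shMETTL1 minus shscramble) of the 9 genes that passed the filter, from FPKM by limma with its SE (filled circles), from FPKM without shscramble replicate 2 (open circles) and from estimated counts by edgeR (diamonds). TLL1 lies at -1.47 and -1.30, ID1 at 1.28 and 1.22, and BMPR1A has the widest SE, 0.55.

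Of the 10 genes, 9 passed the filter and ID4 did not. At an adjusted p under 0.05 limma called 2 of them, TLL1 lower and ID1 higher, and 0.123% of all 12156 tested genes. EdgeR called the same 2, and 6.94% of 11248 genes. FPKM did not overlap between the groups for 4 of the 9, against 19.8% of all tested genes, and counts for 3 of the 9, against 26.0%. Since this contrast chose the genes, their calls were fixed by that choice and nothing is read from these counts. The limma calls depended on which libraries were in the fit. Without shscramble replicate 2, limma called TLL1, ID1 and ID3, and edgeR called ID2 as well, in fits that called 1.56% and 19.1% of all genes. Without any 1 of the other 5 libraries limma called none of them, in fits that called 3 to 6 of 12167 to 12185 genes. EdgeR called TLL1 and ID1, in fits that called 299 to 466 of 11377 to 11413 genes.

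**Figure D3:**
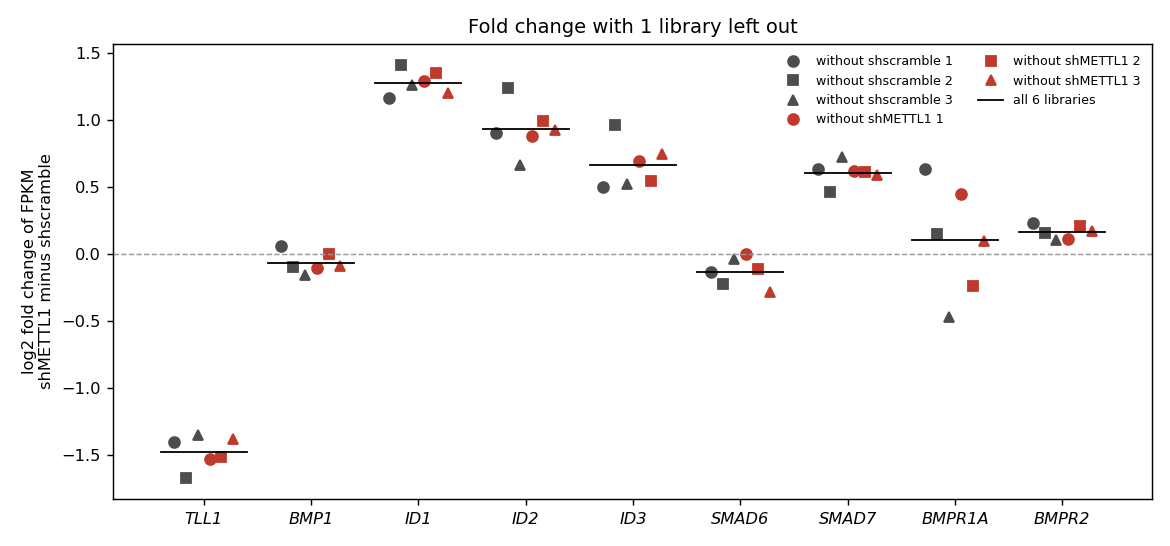
Log2 fold change of FPKM (y axis) for each gene after leaving out 1 library in turn (grey for a shscramble library, red for a shMETTL1 library, marker shape for its number), with a line for all 6 libraries. TLL1 stays between -1.67 and -1.35 and ID1 between 1.16 and 1.41, while BMPR1A runs from -0.47 to 0.63.

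In order of level, shscramble cells had TLL1 far above ID3, followed by BMPR2 at 18.8 ± 1.77 and ID1 at 15.8 ± 2.89 FPKM (SD, n = 3), which overlapped each other. SMAD6 came next by its mean, and SMAD7, BMPR1A, BMP1 and ID2 overlapped from each to the next between 1.52 and 8.78 FPKM, with the highest BMPR1A library inside the SMAD6 range of 7.64 to 10.1 FPKM. In shMETTL1 cells, ID3 (74.4 ± 11.2 FPKM) and TLL1 (73.2 ± 8.01 FPKM) overlapped at the top. ID1 came next and lay above BMPR2 without overlap.

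The genes whose log2(FPKM + 0.5) followed TLL1 most closely over the 6 libraries, among 11293 protein-coding genes with a mean of at least 1 FPKM, were KIF14 (Pearson r = 0.997), PRUNE2 (0.995), XRCC5 (0.994), CDK14 (0.993) and ANLN (0.992). Those closest to ID1 were SLC1A4 (0.999), GNL3 (0.999), ZBTB9 (0.996), HMGCS1 (0.996) and GPR157 (0.994). These values are a description over 6 points in which the gap between the groups sets most of the correlation.

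The other genes of the pathway were listed by role, 129 symbols of which 127 were in the tables and 65 passed the filter. By limma none was called, 14 (21.5%) had an unadjusted p under 0.05 (7 higher and 7 lower) beside 14.2% of all genes, and the median log2 difference was -0.0034 against 0.02 over all tested genes. By edgeR 6 of 59 were called, which is 10.2% beside the 6.94% of all genes: BMP7, SMAD1 and SMAD9 higher, and ACVR2B, TGFBR3 and SMAD3 lower. DESeq2 called 5 of these 59. Without shscramble replicate 2, limma called 2 (BMP7 higher, BHLHE41 lower) of 67 and edgeR 12 of 59, or 2.99% and 20.3%, beside 1.56% and 19.1% of all genes.

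Among the ligands, 3 of 14 measured passed the filter. BMP7 was by far the most abundant, at 21.8, 28.0 and 11.7 FPKM in shscramble and 44.4, 60.2 and 46.7 FPKM in shMETTL1. The groups did not overlap in FPKM or in counts, which were 195, 220 and 169 in shscramble and 415, 414 and 393 in shMETTL1. The log2 difference was 1.35 ± 0.29 (SE) by limma (adjusted p = 0.109) and 1.01 by edgeR (adjusted p = 0.000104), and over all fits the adjusted p ran from 5.03e-09 to 0.306. BMP6, a relative that signals through the same SMADs, was at 2.82 ± 0.9 and 4.06 ± 0.938 FPKM (SD, n = 3), and BMP8B was at 0.724 and 0.475 FPKM. Neither was called by either tool. BMP2, the ligand most often used to induce ID genes in culture, was at 0 in all libraries, and BMP4 was under 1 FPKM.

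Secreted antagonists were scarce. Of 18 measured, 11 were at 0 in all libraries, noggin (NOG) and gremlin (GREM1) among them, and chordin (CHRD), the tolloid substrate, reached at most 0.144 FPKM. With all 6 libraries none of the 4 that passed the filter was called by limma, and none of the 3 tested by edgeR, which left out FST. CRIM1 was at 4.92 and 5.03 FPKM in shscramble and shMETTL1. Its counts did not overlap, at 156, 104 and 109 in shscramble and 83, 85.6 and 68.4 in shMETTL1. By edgeR its adjusted p was 0.0522, and 0.00411 without shscramble replicate 2, when it was called lower. FST, which encodes follistatin, was at 1.71, 0.6 and 0.89 FPKM in shscramble and 0.135, 0.418 and 0 FPKM in shMETTL1 (limma adjusted p = 0.346). FSTL3 was at 8.78 and 6.55 FPKM and TWSG1, a chordin partner, at 16.5 and 18.4 FPKM in the 2 groups.

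Of 26 genes listed as tolloid relatives, substrates and helpers, 12 passed the filter and none was called by either tool with all 6 libraries. The median log2 difference was -0.12 by limma and 0.15 by edgeR. LAMA3, a laminin chain that tolloids can process, was the most abundant, at 33.4, 33 and 31.8 FPKM in shscramble and 43.6, 44.6 and 36 FPKM in shMETTL1. Its groups did not overlap (limma adjusted p = 0.368, edgeR adjusted p = 0.0808, range over all fits 0.0478 to 0.645). PCOLCE, the enhancer of procollagen cleavage, was at 3.3, 6 and 6.74 FPKM in shscramble and 3.51, 1.78 and 3.08 FPKM in shMETTL1, with overlapping groups. LOXL1, a collagen and elastin cross-linking enzyme whose proform tolloids can cut, was at 0.714, 5.66 and 2.37 FPKM in shscramble and 9.80, 5.47 and 5.76 FPKM in shMETTL1. The LOXL1 groups overlapped in FPKM and in counts, which were 4.67, 25.2 and 13 in shscramble and 20.4, 16.9 and 19.6 in shMETTL1. Its log2 difference was 1.39 by limma (adjusted p = 0.303) and 0.37 by edgeR (adjusted p = 0.689). IGFBP3 was at 1.73 ± 0.903 and 5.31 ± 3.38 FPKM (SD, n = 3), with overlapping groups (limma adjusted p = 0.363, edgeR adjusted p = 0.365). Of the fibrillar collagens, COL1A1 was at 10.1 and 8.14 FPKM, whereas its partner COL1A2 was at 0 in shscramble and 0.0127 FPKM in shMETTL1. The counts behind COL1A1 were low, 12.1 to 22.7 in shscramble and 8.88 to 15 in shMETTL1, so its level is uncertain.

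Receptors and co-receptors held both calls in the lower direction within the BMP lists. ACVR2B, a type II receptor for activins and some BMPs, was at 6.13, 6.15 and 5.65 FPKM in shscramble and 2.56, 2.61 and 2.09 FPKM in shMETTL1. The groups did not overlap in FPKM or in counts, with a log2 difference of -1.15 ± 0.25 (SE) by limma (adjusted p = 0.109) and -1.32 by edgeR (adjusted p = 4.42e-05), and a range of 1.35e-10 to 0.299 over all fits. TGFBR3, or betaglycan, a co-receptor that binds TGF-beta, inhibin and BMPs, was at 32.5, 45.0 and 36.1 FPKM in shscramble and 21.8, 16.8 and 14.1 FPKM in shMETTL1. Its log2 difference was -1.09 ± 0.21 (SE) by limma (adjusted p = 0.0803) and -0.78 by edgeR (adjusted p = 0.00255), with a range of 0.000162 to 0.27. The list median of -0.43 over 8 genes by limma was 0.02 over 7 genes by edgeR. AMHR2, the anti-Müllerian hormone receptor, was at 1.3 to 1.73 FPKM in shscramble and 0 to 0.48 FPKM in shMETTL1, and its counts were below the filter used for edgeR. Of the type I receptors, ACVR1 was at 3.62 and 4.62 FPKM and was not called, and ACVRL1, the type I receptor of endothelial cells, was at 0.

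Of the 13 SMADs and SMAD regulators, all of which passed the filter, edgeR called SMAD1 and SMAD9, which carry the BMP signal to the nucleus, and both were higher. SMAD1 was at 11.7, 11.8 and 11.3 FPKM in shscramble and 25.8, 22.4 and 17.3 FPKM in shMETTL1. Its counts were 69.9, 80.8 and 70.9 in shscramble and 171, 164 and 128 in shMETTL1. The log2 difference was 0.86 ± 0.20 (SE) by limma (adjusted p = 0.115) and 1.01 by edgeR (adjusted p = 0.00181), with a range of 0.000192 to 0.346 over all fits. SMAD9 was at 11, 7.98 and 7.38 FPKM in shscramble and 13.4, 14.9 and 10.4 FPKM in shMETTL1, with overlapping FPKM and separate counts. It passed by edgeR (log2 difference 0.47, adjusted p = 0.0475) and not by limma (adjusted p = 0.35) or DESeq2, and its range was 0.0274 to 0.629. SMAD5, the most abundant of the 3, was at 19.4, 28.7 and 16.6 FPKM in shscramble and 35.7, 29.8 and 25.2 FPKM in shMETTL1, and was not called. Their summed FPKM was 42.1, 48.5 and 35.3 in shscramble and 74.9, 67.1 and 53.0 in shMETTL1. SKI, a nuclear co-repressor of SMADs, was at 31.4 ± 12.8 and 56.3 ± 15.8 FPKM (SD, n = 3), with overlapping FPKM and separate counts. The log2 difference of SKI was 0.86 by limma (adjusted p = 0.265) and only 0.35 by edgeR (adjusted p = 0.076). Without shscramble replicate 2 its edgeR adjusted p was 0.0161. The common partner SMAD4 and the ubiquitin ligases SMURF1 and SMURF2 were not called.

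Beyond the ID genes, 6 of 10 other BMP targets passed the filter and none was called. BAMBI, a decoy receptor that the pathway induces, was at 43.0 ± 4.22 and 50.6 ± 5.93 FPKM (SD, n = 3). The homeobox gene MSX2 was at 6.61, 5.37 and 4.34 FPKM in shscramble and 8.61, 8.57 and 9.71 FPKM in shMETTL1. The MSX2 groups did not overlap, and its adjusted p was 0.252 by limma and 0.0947 by edgeR, with a range of 0.0383 to 0.494. MSX1 was at 2.38 ± 1.4 and 3.59 ± 0.999 FPKM (SD, n = 3), with overlapping groups.

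The E proteins, which ID proteins bind, had overlapping values in the 2 groups. TCF3 was at 37.6 and 37.0 FPKM, TCF12 at 34.8 and 33.7 FPKM and TCF4 at 15.4 and 12.6 FPKM in shscramble and shMETTL1, and the log2 differences were 0.01 ± 0.24, -0.05 ± 0.18 and -0.27 ± 0.25 (SE). Of the 9 helix-loop-helix genes that passed the filter none was called with all 6 libraries. BHLHE41, a repressor of the circadian clock, was at 35.7, 18.8 and 36.7 FPKM in shscramble and 15.9, 11.2 and 14.6 FPKM in shMETTL1. Its adjusted p was 0.156 by limma and 0.123 by edgeR, and 0.0316 and 0.0106 without shscramble replicate 2. HES1, a Notch target, was at 49.6 ± 6.61 and 41.3 ± 4.76 FPKM (SD, n = 3), and TWIST1 was at 2.26 ± 1.16 and 3.81 ± 1.82 FPKM.

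In the TGF-beta branch, which uses other receptors and SMADs, edgeR called 1 of 10 genes. SMAD3 was at 15.0, 10.2 and 9.87 FPKM in shscramble and 5.77, 4.47 and 8.04 FPKM in shMETTL1. Its log2 difference was -0.90 ± 0.28 (SE) by limma (adjusted p = 0.21) and -0.88 by edgeR (adjusted p = 0.0178), with a range of 0.00212 to 0.48. SMAD2, its partner, was at 53.5 and 59.5 FPKM and was not called. TGIF1, a co-repressor, was at 37.5 ± 5.97 and 48.1 ± 2.56 FPKM (SD, n = 3) with separate groups and no call. TGFBR1 was at 5.77 ± 1.51 and 9.06 ± 2.12 FPKM, with a log2 difference of 0.61 in FPKM and 0.03 in counts, and its partner TGFBR2 was at 0.0481 and 0.053 FPKM.

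**Figure D4:**
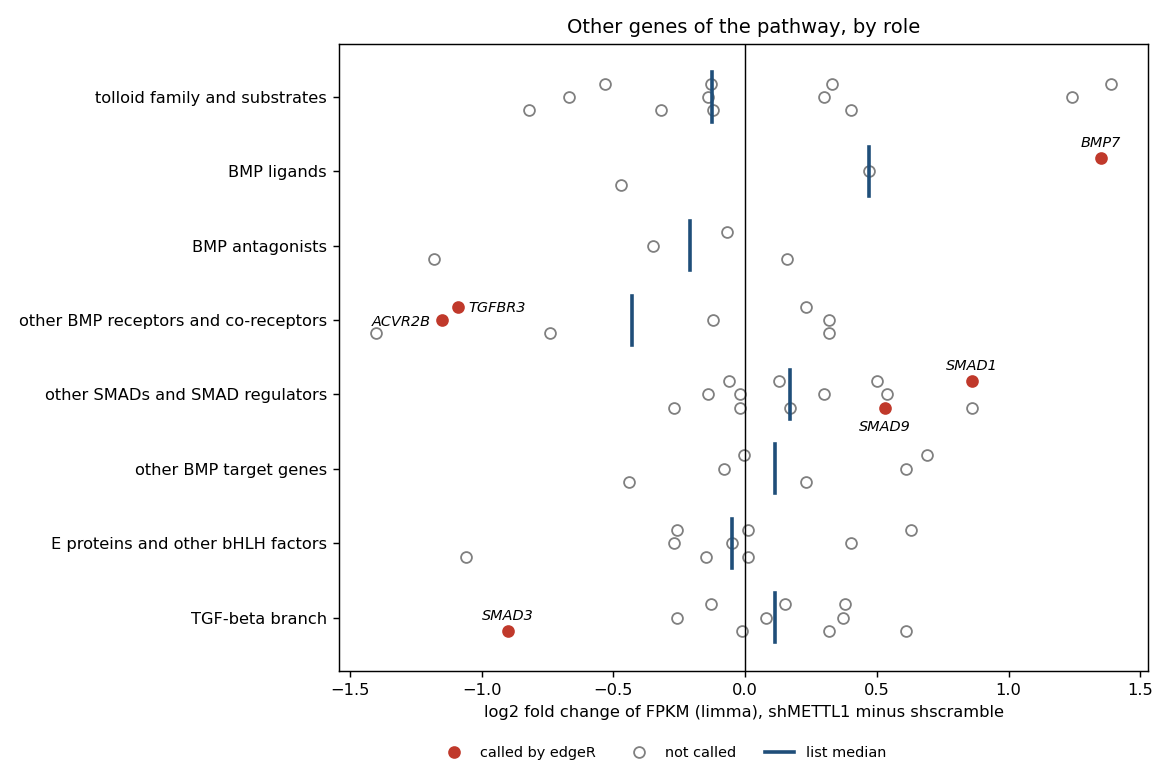
Log2 fold change of FPKM by limma (x axis, shMETTL1 minus shscramble) of the 65 other pathway genes that passed the filter, by role (rows), with red points for genes called by edgeR, open points for the rest and a bar for the median of each list. The 6 called genes lie on both sides of 0, BMP7, SMAD1 and SMAD9 above it and ACVR2B, TGFBR3 and SMAD3 below it.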

How the data were processed

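Total RNA of 6 LNCaP-AI libraries, 3 shMETTL1 and 3 shscramble, was sequenced by the authors. Tools listed by the submitters' processing notes, without saying what each did, are HISAT2 2.0.4, cutadapt 1.9.3, Cuffdiff and Cufflinks, on genome build hg19. The authors deposited FPKM and estimated counts per gene and library, with count totals of 3389897 to 3604835. That the counts were scaled is inferred from their steps and not stated in the labels, and the depths in fragments rest on it.

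Genes whose FPKM averaged 0.5 or more over the libraries were tested by limma 3.58.1 (R 4.3.3, trend and robust prior, two-sided, no pairing) on log2(FPKM + 0.5), on which scale changes of low genes are understated. P-values were adjusted by Benjamini-Hochberg over all tested genes and called under 0.05. Alternatives were edgeR 4.0.16 (quasi-likelihood, TMM) and DESeq2 1.42.0 on rounded counts, log2 CPM (prior count 2), pseudocounts of 0.1 and 1, other filters and scalings, a replicate block and leaving out each library. EdgeR on counts returned to each library's own depth was chosen after seeing the data. The fits were tested on simulated data in which each gene had a fixed length, so differences between FPKM and counts were outside that test. No library duplicated another. The members and lists were chosen with earlier results of these data known. Text names METTL1, the 10 genes, and from each pathway list every gene called by limma or edgeR plus the 3 with the smallest limma p. The 5 genes most like TLL1 and ID1 were named by Pearson r, and further list genes were named for background after their values were seen. Symbols came from 19434 matched identifiers. GDF2, KCP and PECAM1 were not analysed here. Promoter windows are from RefSeq (GRCh38.p14), and overlapping genes from GENCODE on GRCh38. Of the 10 genes, all but BMP1 were searched for motifs, and only SMAD7 had several windows. From the luminal marker list, 1 gene was left out.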

Additional observations from a re-analysis of the deposited data

How the results depend on the processing

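EdgeR on the estimated counts called 781 of all genes, DESeq2 774, limma on log2 CPM 726 and edgeR on counts returned to each library's own depth 753, against 15 by limma on FPKM. No filter on low values gave 4 and the replicate block 6. Leaving out 1 library gave 3 to 189 by limma and 299 to 2172 by edgeR, in each case the highest without shscramble replicate 2. Of the 10 genes, 2 were called in the main analysis, 1 with a pseudocount of 0.1 (TLL1), 0 with no filter, 0 with the replicate block, 0 to 3 by limma and 2 to 4 by edgeR with 1 library left out. Of the other pathway genes, limma on FPKM called 0, edgeR 6, DESeq2 5, log2 CPM 6 and edgeR at own depth 6, with 0 to 2 (limma) and 4 to 12 (edgeR) leaving out 1 library. TLL1 stayed between -1.67 and -1.22 and ID1 between 1.10 and 1.41 over 23 alternatives, and ID2 and ID3 kept their sign. SMAD7 did too, but moved by over 1 SD in 9 alternatives, as did BMPR2 in 8 and SMAD6 in 1. The small differences of SMAD6 (5 alternatives), BMPR2 (3), BMPR1A (2) and BMP1 (1) changed sign. By edgeR, LOXL1 turned to -0.0019 without shscramble replicate 1, FSTL3 to 0.05 and 0.06 without shscramble replicate 1 or shMETTL1 replicate 1, TWIST1 to -0.11 and -0.34 without shscramble replicate 3 or shMETTL1 replicate 2, and TGFBR1 to -0.04 and -0.09 without shscramble replicate 2 or shMETTL1 replicate 2. The cause was not tested. Deviations of same-numbered libraries from the group means correlated at 0.00, 0.05 and -0.02 over 12156 genes. The labels do not say whether libraries were paired, and these correlations cannot decide it. The replicate block is therefore given only as an alternative.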
